A study of Rattus norvegicus with 27 samples.

Results

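The genes described here were 36 genes of myelin and of mature oligodendrocytes. They were chosen by gene symbol from what these cells are known to express, with earlier results of these data known. Each was looked up by NCBI gene ID in a table of raw read counts with 36865 rows. All 36 had a row, and 33 of them had reads. The counts came from polyA RNA of the mPFC (medial prefrontal cortex), taken from male Wistar rats supplied by Charles River, 27 in all and each with 1 library. All 27 rats formed 1 group with no control group: each had passed through behavioral tests that included the elevated plus-maze, light-dark and open field tests, each carried the same treatment label of Learned helplessness, and brains were taken from animals at rest, directly from the home cage. The question of the study was which genes vary with anxiety-like behavior between rats, and behavioral scores were not used here. The bilateral mPFC pieces were cut along the forceps minor, a white matter tract, so a piece could carry more or less of that tract. In such bulk tissue, fewer oligodendrocytes and less RNA per oligodendrocyte cannot be told apart.

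Oligodendrocytes wrap axons with myelin, a stack of lipid-rich membrane that speeds conduction of nerve impulses. Myelin is compacted by a few abundant proteins, its membrane is rich in galactolipids made by dedicated enzymes, and the cell is specified and kept mature by a set of transcription factors. In the cortex myelin is sparse in the upper layers and dense in the deep layers and in the white matter beneath them. The members were therefore ordered by role as core myelin genes, genes of lipid handling, gap junctions and enzymes, transcription factors, and genes of the membrane, cytoskeleton and other roles.

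Total counts ranged from 4907255 to 12771309 with a median of 8168801. Depth parted at the library number: library numbers 31 and below (n = 16) spanned totals of 4907255 to 8568317, and numbers 32 and above (n = 11) spanned 9404220 to 12771309. What this number stands for is not given in the sources used here, so it is called a library number block. The rats were adults from 2 cohorts, and which library came from which cohort is not given either, so cohort and library number block cannot be told apart here. Defining markers of the tissue were present, with summed levels of 37700 to 50000 normalized counts (counts divided by the DESeq2 size factor of the library) for 7 neuronal markers. Summed levels of 7 meningeal fibroblast genes ranged 17.2-fold, from 954 to 16400. Those of 4 choroid plexus genes were low and ranged 16.2-fold, from 1.21 to 19.6, with Folr1 at 0.

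Gjc3 (a glial connexin), Cryab (a small heat shock protein) and Anln (anillin, a cytoskeletal protein found in myelin) had 0 reads in every library. A count of 0 allows a share of up to 6.11e-05% of counts in the shallowest library and 2.35e-05% in the deepest, for counting error only. In the RefSeq annotation each of these 3 genes overlaps another gene. Members with ample reads do so too, among them Mbp, Mog, Plekhb1 and Evi2a, while Folr1, also at 0, has no overlap listed. The part of the overlap in the zeros was not tested. All further values are over the 33 members with reads.

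Upstream sequences are shown for Mag, a core myelin gene, for Tf and Nkx6-2, which followed the core closely, and for Cntn2, which did not. They are the 250 bases before the start site, 5′ to 3′ on the gene's strand, from RefSeq on GRCr8, which need not be the build of the counts: chr1:95291045-95291294 (Mag), chr8:112695377-112695626 (Tf), chr1:203813123-203813372 (Nkx6-2) and chr13:46528026-46528275 (Cntn2), all on the minus strand. Capitals mark matches on either strand to any of 4 motifs. SOX factors are known to bind the letters ACAAAG. They also bind a second form of these letters, which reads ACAATG. The E-box, the class of site that OLIG factors bind, was searched as CAGCTG. The TATA box near many start sites was searched as TATAAA.
Mag: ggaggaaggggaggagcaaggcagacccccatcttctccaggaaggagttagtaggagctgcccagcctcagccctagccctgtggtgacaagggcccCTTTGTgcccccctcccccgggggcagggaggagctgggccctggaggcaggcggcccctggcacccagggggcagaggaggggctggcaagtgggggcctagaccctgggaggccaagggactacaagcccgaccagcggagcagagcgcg
Tf: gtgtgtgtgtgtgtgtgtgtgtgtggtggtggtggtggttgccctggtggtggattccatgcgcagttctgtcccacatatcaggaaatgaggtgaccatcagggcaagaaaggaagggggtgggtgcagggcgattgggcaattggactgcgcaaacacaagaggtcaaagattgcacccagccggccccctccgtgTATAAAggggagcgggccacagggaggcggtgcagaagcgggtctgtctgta
Nkx6-2: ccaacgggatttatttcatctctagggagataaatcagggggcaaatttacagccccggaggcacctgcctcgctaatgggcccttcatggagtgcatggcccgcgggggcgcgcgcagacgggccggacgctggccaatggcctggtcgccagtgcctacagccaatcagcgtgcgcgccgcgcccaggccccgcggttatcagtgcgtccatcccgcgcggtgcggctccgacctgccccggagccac
Cntn2: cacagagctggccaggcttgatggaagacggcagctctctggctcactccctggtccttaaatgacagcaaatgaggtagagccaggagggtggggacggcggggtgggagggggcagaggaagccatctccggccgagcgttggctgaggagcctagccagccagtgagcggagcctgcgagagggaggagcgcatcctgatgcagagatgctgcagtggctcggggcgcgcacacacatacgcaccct
Of the 36 members, 26 had such a window. A SOX match of either kind was present in 8 of the 26 genes (Apod, Aspa, Cnp, Mag, Mbp, Mobp, Opalin and Tmem88b), against 25.3% of all 33469 windows. The E-box letters were present in 5 of the 26 and in 12.0% of all windows, and the TATA letters in 4 of the 26 and in 12.9% of all windows. Mbp has more than 1 window, so its matches are those of any of them. The Nkx6-2 and Cntn2 windows held none of these letters. Over all 27 libraries these genes had the highest and the lowest slope on the core level among the members outside the core. Without library 3 the slope of Nkx6-2 was 1.03, below that of Tmem88b at 1.22, and Cntn2 stayed lowest at 0.24.

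The core level of a library was taken as the mean of log2(normalized count + 1) over 9 core genes: Mbp, Mog, Mag, Mobp, Cnp, Cldn11, Opalin, Ermn and Mal. Written as a geometric mean it ranged 3.11-fold, from 632 normalized counts to 1960, with a median of 1090. Library 3 stood highest, at 1.798 times the median, followed by libraries 5, 9 and 13 at 1521, 1453 and 1372. Libraries 18, 17 and 32 stood lowest, at 631.7, 660.2 and 668.8. The 9 genes together took 0.153% to 0.549% of all counts in a library.

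**Figure D1:**
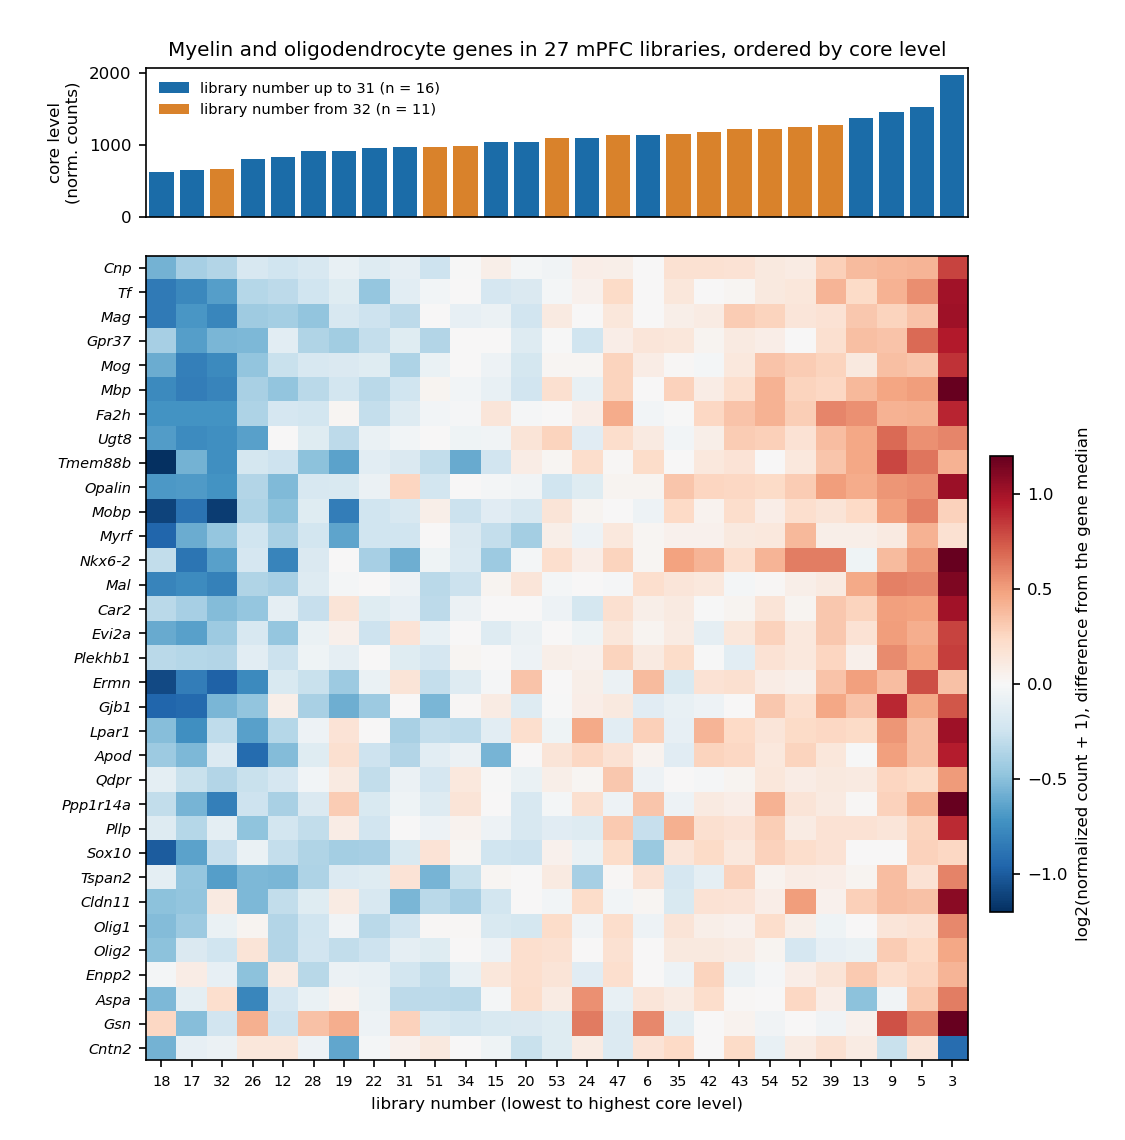
Top, core level of each of the 27 libraries (geometric mean of 9 core genes, normalized counts), coloured by library number block. Bottom, each member's log2(normalized count + 1) minus its own median over libraries, with genes (rows) ordered by Spearman's rho with the core level. Most rows pass from blue in libraries 18, 17 and 32 to red in library 3, while the row of Cntn2 is at its lowest in library 3.

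Mbp, which encodes myelin basic protein and holds the cytoplasmic faces of myelin together, ranged from 8110 normalized counts in library 17 through a median of 14400 to 33400 in library 3, with a mean of 15000 ± 5090 (SD, n = 27). The next highest value, 20400 in library 5, lay far below that of library 3. Mag, an adhesion protein of the inner myelin layer, ranged from 506 in library 18 through 912 to 1850 in library 3. Mog, a surface protein of the outermost layer, ranged from 256 in library 17 through 453 to 826 in library 3. Library 3 held the highest value of each of these 3 genes, and libraries 17 and 18 the lowest. Cnp, the phosphodiesterase of non-compact myelin, ranged from 1420 in library 18 through 2110 to 3700 in library 3, and its 2.61-fold range was the narrowest of the core. Mal, a lipid raft protein, ranged from 659 in library 32 through 1160 to 2520 in library 3, and Opalin, a glycoprotein found in oligodendrocytes, from 250 in library 32 through 411 to 841 in library 3. Mobp, a small basic protein of compact myelin, ranged from 453 in library 32 through 1000 to 1520 in library 5. Ermn, a cytoskeletal protein of late myelination, ranged from 113 in library 18 through 240 to 412 in library 5. For these last 2 genes library 3 did not hold the highest value. Cldn11, which forms the tight junctions between myelin layers, ranged from 931 in library 31 through 1360 to 2880 in library 3. Its lowest value fell in library 31 and not in the libraries where the other core genes were lowest. No transcript lengths were used, so levels were not compared between genes.

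Over all 33 members the SD of log2 values had a median of 0.37 and ranged from 0.20 to 0.49, beside a median of 0.19 over the 11704 genes whose mean normalized count was 10 or more. Nkx6-2 had the largest SD, 0.49, and Qdpr the smallest, 0.20. The highest value fell in library 3 for 25 of the 33 members, and the lowest in library 17, 18, 26 or 32 for 31 of them. Counting error was a small share of this variance for Mbp, 0.0602%, and a larger one for Aspa, 20.1%, and Olig2, 15.6%. These shares did not follow level alone. Gjb1 and Nkx6-2, with means of 75.1 and 77.3, had 13.5% and 9.39%, below Olig2 with a mean of 277.

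The members varied together. Spearman's rho over the 27 libraries had a median of 0.701 over the 528 pairs of members, from −0.244 to 0.96, beside −0.005 over all pairs of those 11704 genes. These correlations are descriptions over libraries that share depth blocks and tissue content, with no test. Pairs within the core had a median of 0.813, pairs of a core gene with another member 0.738, and pairs outside the core 0.645. The closest pairs were Mbp with Mag at 0.96 and Mbp with Tf at 0.951. All 9 negative pairs contained Cntn2. In a tree built by average linkage and divided at a rho of 0.5, Cntn2, Gsn and Aspa each stood alone, and the other 30 members formed 1 branch.

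**Figure D2:**
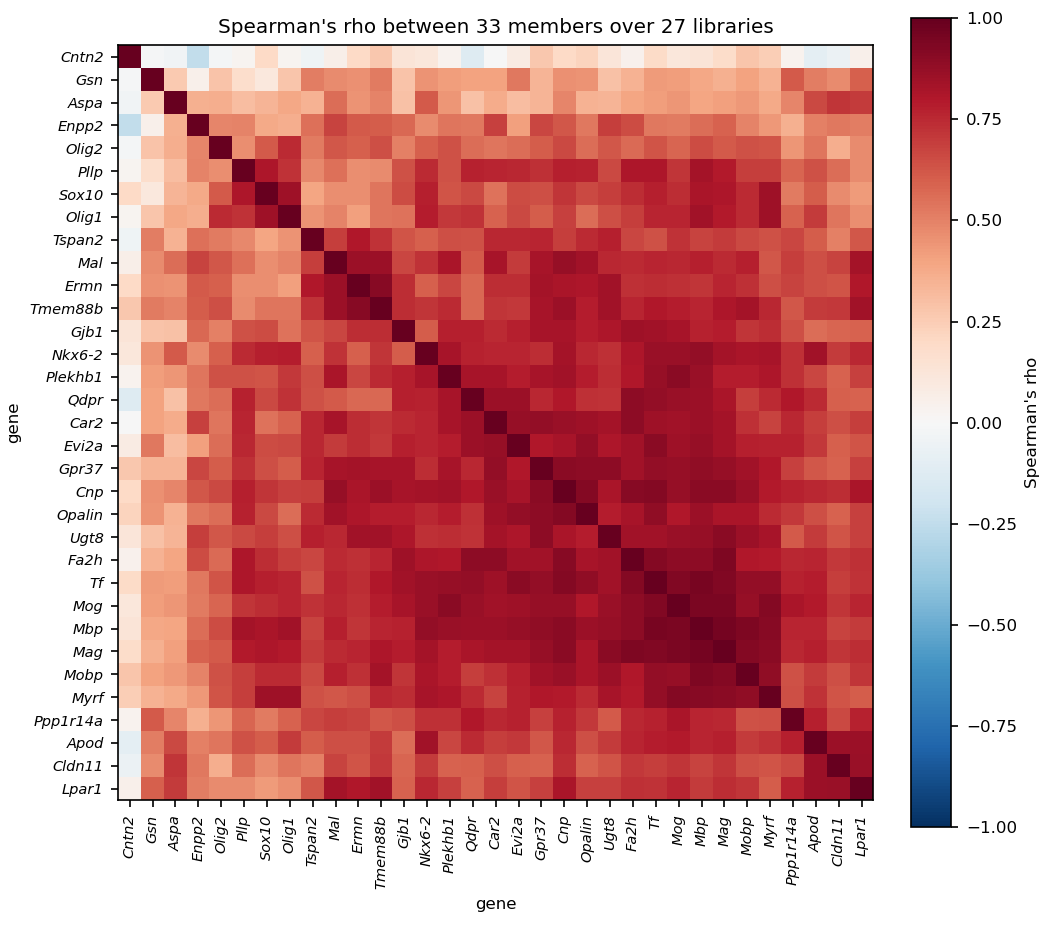
Spearman's rho over 27 libraries between each pair of the 33 members with reads, genes on both axes in the order of the tree. The large dark block holds most core, lipid and enzyme genes, and the pale rows at the top left are Cntn2, Gsn and Aspa.

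Within the branch, smaller neighbourhoods were visible. Cldn11 and Lpar1, a lysophosphatidic acid receptor, had a rho of 0.866, and Apod, a lipid-binding lipoprotein, and Lpar1 one of 0.855. Ermn and Tmem88b, a membrane protein, had a rho of 0.913. Sox10 and Olig1, both transcription factors of the lineage, had a rho of 0.849, and the closest partner of Olig2 was Olig1 at 0.746. Aspa, which splits N-acetylaspartate into acetate for lipid synthesis, was closest to Cldn11 at 0.716. Aspa, Cldn11, Lpar1 and Apod were also the members with the most positive rho with the summary level of the 7 meningeal fibroblast genes, at 0.463, 0.313, 0.242 and 0.229. The core level had a rho of −0.217 with that meningeal level. The part of meningeal tissue in these 4 genes was not tested.

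Each member was next set against the core level, leaving a core gene out of its own core mean. Spearman's rho with the core had a median of 0.887 in the core (0.725 to 0.949), 0.845 over 8 genes of lipids, connexins and enzymes (0.51 to 0.944), 0.751 over 5 transcription factors (0.641 to 0.875) and 0.791 over 11 other genes (0.2 to 0.924). Over the 11704 genes with a mean normalized count of 10 or more it had a median of −0.015. The slope of log2 level on log2 core level, where 1 means proportional change, gave a median of 1.04 in the core and 0.76 over the 24 members outside it. In the core the slope was 1.19 ± 0.07 (SE) for Mbp and 0.72 ± 0.04 for Cnp, although Cnp had the closest rank correlation, 0.949. Cldn11 had the lowest core slope, 0.70 ± 0.13.

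Among the genes of lipids, connexins and enzymes, Tf, Fa2h, Ugt8 and Gjb1 tracked the core nearly in proportion. Tf, the iron carrier transferrin, ranged from 1260 normalized counts in library 18 through 2270 to 4580 in library 3, with a slope of 1.03 ± 0.06. Its lowest and highest libraries were also those with the lowest and highest core level. Fa2h, which hydroxylates myelin fatty acids, ranged from 107 in library 32 through 177 to 335 in library 3, with a slope of 1.04 ± 0.07. Ugt8, which makes galactosylceramide, ranged from 194 in library 17 through 327 to 524 in library 9, with a slope of 0.97 ± 0.08. Both enzymes of the galactolipid route thus had slopes within 1 SE of 1. Gjb1, the connexin 32 gene of gap junctions, ranged from 38.1 in library 18 through 74.4 to 140 in library 9, with a slope of 1.08 ± 0.12. Car2, a carbonic anhydrase, ranged from 583 in library 32 through 837 to 1680 in library 3, with a slope of 0.79 ± 0.08. The remaining 3 enzymes of this class had lower slopes. Qdpr, which regenerates tetrahydrobiopterin, ranged from 1280 in library 32 through 1630 to 2320 in library 3, with a slope of 0.44 ± 0.06. Aspa ranged from 64.2 in library 26 through 111 to 170 in library 3, with a slope of 0.43 ± 0.14. Enpp2, autotaxin, which makes lysophosphatidic acid, ranged from 600 in library 26 through 846 to 1120 in library 3, with a slope of 0.32 ± 0.09. Enpp2 is also known in choroid plexus, of whose 4 markers Folr1 was at 0 and Ttr reached 16 normalized counts, and the part of that tissue in the Enpp2 level was not tested.

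The transcription factors differed widely in slope. Nkx6-2, a homeobox factor of myelinating oligodendrocytes, ranged from 38.4 in library 17 through 71.3 to 180 in library 3, a 4.7-fold range, with a slope of 1.13 ± 0.14. Its next highest value was 110, in libraries 39 and 52, and its slope was 1.03 without library 3. Myrf, a factor that switches on myelin genes, ranged from 325 in library 18 through 629 to 841 in library 5, with a slope of 0.72 ± 0.09. Sox10, which acts throughout the lineage, ranged from 215 in library 18 through 431 to 523 in library 54, with a slope of 0.64 ± 0.11. These 2 factors were low in the library with the lowest core level but not highest in library 3. Olig1 ranged from 801 in library 18 through 1150 to 1710 in library 3, and Olig2 from 197 in library 18 through 278 to 384 in library 3. Both OLIG factors, which precursors express as well, had low slopes on the core, 0.49 ± 0.08 and 0.43 ± 0.08. Their rho with the core was 0.779 and 0.768 in the libraries up to number 31 and 0.173 and 0.045 in those from number 32, and 30 of the 33 members had a lower rho in the second block, where the core level itself varied less (SD of log2 values 0.27 against 0.43).

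In the last class, Gpr37, a receptor, Tmem88b and Evi2a, a membrane protein encoded inside an intron of Nf1, stayed close to the core, with slopes of 0.91 ± 0.08, 1.07 ± 0.12 and 0.81 ± 0.07. Lpar1, Ppp1r14a (an inhibitor of myosin phosphatase) and Apod followed with slopes of 0.91 ± 0.11, 0.85 ± 0.11 and 0.83 ± 0.13. Plekhb1, a membrane-binding protein, Tspan2, a tetraspanin, and Pllp, plasmolipin, had slopes of 0.66 ± 0.07, 0.65 ± 0.11 and 0.59 ± 0.10. The levels of these 9 genes were highest in library 3, apart from Tmem88b, which was highest in library 9. Gsn, the actin-severing protein gelsolin, ranged from 565 in library 17 through 805 to 2400 in library 3, with a slope of 0.62 ± 0.20. The value in library 3 set much of that slope, which was 0.32 without this library. Cntn2, an axonal and glial adhesion protein of the juxtaparanode that neurons also express, ranged from 291 in library 3 through 548 to 647 in library 35, with a slope of −0.04 ± 0.15. Cntn2 was thus lowest in the library where 25 of the 32 other members were highest, and its slope without library 3 was 0.24, with a rho of 0.344 in place of 0.2. Of the 7 neuronal markers 3 were also lowest in library 3, Syt1 at 1500 against a median of 3880, Slc17a7 at 7480 against 11300 and Gad2 at 96.3 against 339. The others were not, with Snap25, Rbfox3 and Neurod6 lowest in library 5 and Gad1 lowest in library 24. The part of neuronal content in the Cntn2 value was not tested.

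**Figure D3:**
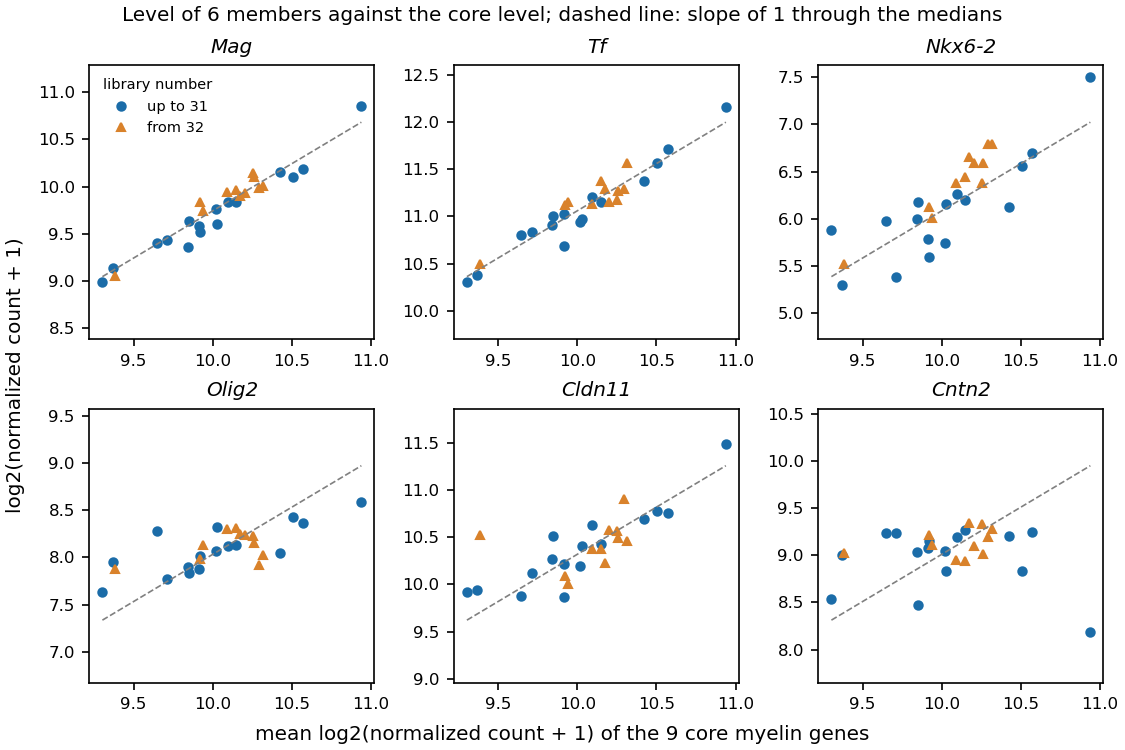
Level of 6 members (log2 normalized count + 1) against the core level (mean log2 of the 9 core genes, which include Mag and Cldn11) in 27 libraries, with point shape by library number block. Mag, Tf and Nkx6-2 lie along the dashed line of slope 1, Olig2 lies flatter, Cldn11 scatters more widely, and Cntn2 is level apart from its low value in library 3.

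To test the members against a measure that held none of them, a covariate was formed as the mean standardized log2 level of 21 other oligodendrocyte genes, among them Hapln2 and Gal3st1, and scaled to an SD of 1. It ranged from −1.968 in library 18 to 2.451 in library 3. The members and the covariate genes were both chosen with earlier results of these data known. Of the 33 members, 29 rose with the covariate and 0 fell (edgeR quasi-likelihood test, Benjamini-Hochberg adjusted over 11292 genes). Of all genes tested, 1.31% rose and 0.186% fell. The median log2 change per SD was 0.29 over the members and 0.00 over all genes tested.

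The largest changes were those of Nkx6-2 and Mbp, 0.44 ± 0.046 (SE, adjusted p = 1.56e-07) and 0.43 ± 0.027 (adjusted p = 3.84e-12) on the log2 scale per SD of the covariate, in edgeR's quasi-likelihood test. All 9 core genes rose, by 0.25 for Cnp to 0.43 for Mbp. Of the genes of lipids, connexins and enzymes 6 of 8 rose, led by Tf at 0.37 and Fa2h at 0.36. All 5 transcription factors rose, Olig2 by 0.15 at the lower end, and so did 9 of the 11 other genes, by 0.19 for Tspan2 to 0.33 for Tmem88b. The 4 that did not pass were Aspa at 0.15 (adjusted p = 0.177), Enpp2 at 0.08 (adjusted p = 0.279), Gsn at 0.21 (adjusted p = 0.148) and Cntn2 at 0.03 (adjusted p = 0.843), all from edgeR. Gsn, which differed between the library number blocks, rose with the block as a term, by 0.31 (adjusted p = 0.000279, edgeR), and its rho with the core was 0.603 up to number 31 and 0.845 from number 32 against 0.424 over all libraries. The 0 falling members include 0 at an unadjusted p under 0.05 as well, since every estimate was positive, and DESeq2 called the same number rising, 29. Without library 3 the count rising was 27, beside 1.42% of all genes, with Olig2 (adjusted p = 0.0602) and Tspan2 (adjusted p = 0.116) no longer called by edgeR. Tspan2 was also not called without library 17 (adjusted p = 0.0581, edgeR), and without libraries 3 and 18 together Olig2, Tspan2, Lpar1 (adjusted p = 0.0672) and Ppp1r14a (adjusted p = 0.0561) were not called by edgeR. Within the 16 libraries up to number 31, 30 members rose, beside 1.78% of all genes, Gsn now among them at 0.34. Within the 11 libraries from number 32 the core spanned 669 to 1270 in place of 632 to 1960. In these libraries edgeR called 0 members and 0 of all 11313 genes. All 33 member estimates were positive with a median of 0.28, Olig1 at 0.08 and Olig2 at 0.06 among the lower ones. There, 25 members had an unadjusted p under 0.05, beside 2.78% of all genes positive at that level, and DESeq2 called 12 members, beside 0.248% of all genes rising.

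The second test asked which members had a lower slope on the covariate than the core, by adding the core level to the model as an offset. A lower slope is not a rise, and 98.3% of all genes tested had one. Of the 24 members outside the core, 11 did, and the other 13 did not pass in edgeR over all libraries. Of the 11, Cntn2, Enpp2, Aspa and Gsn had not passed as rising with the covariate. The 11 were Cntn2 (−0.31 ± 0.063 on the log2 scale per SD of the covariate, relative to the core), Enpp2 (−0.26), Aspa (−0.19), Qdpr (−0.19), Olig2 (−0.19), Tspan2 (−0.15), Olig1 (−0.14), Gsn (−0.14), Pllp (−0.11), Plekhb1 (−0.11) and Car2 (−0.09). By class these were 4 of 8 genes of lipids, connexins and enzymes, 2 of 5 transcription factors and 5 of 11 other genes. In this test 0 members outside the core were called with a higher slope than it, beside 4 of all 11292 genes. Nkx6-2 came nearest at 0.10 (adjusted p = 0.0536, edgeR). Nkx6-2 passed under 10 of 36 alternatives, with 0.11 in DESeq2 (adjusted p = 0.0408) and 0.16 without library 18 (adjusted p = 0.00434, edgeR), and its adjusted p over all of them ranged from 0.00434 to 0.392. Sox10 at −0.06 and Myrf at −0.05 did not pass over all libraries, but both did with the library number block as a term, at −0.14 (adjusted p = 0.000486) and −0.10 (adjusted p = 0.00856) in edgeR. Sox10 also passed within each block alone (−0.14, adjusted p = 0.00704 up to number 31 and −0.18, adjusted p = 0.0402 from number 32, edgeR), and Myrf within the first (−0.11, adjusted p = 0.0233, edgeR). The call for Gsn was lost under 10 of 36 alternatives, among them the block as a term (−0.08, adjusted p = 0.202, edgeR), the libraries up to number 31 alone (−0.04, adjusted p = 0.603, edgeR) and each of libraries 18, 19, 26, 35, 43, 52 and 54 left out, with −0.09 without library 18. Car2 did not pass in either block alone (adjusted p = 0.0502 up to number 31 and 0.126 from number 32, edgeR), and Tspan2 did not pass from number 32 (adjusted p = 0.405, edgeR). The call for Pllp was lost without library 18 (−0.08, adjusted p = 0.0995, edgeR) and without libraries 3 and 18 together. Of the 13 that had not passed, Apod did from number 32 alone (−0.25, adjusted p = 0.00559, edgeR, against −0.05 over all libraries), Ppp1r14a without library 3 (−0.11, adjusted p = 0.0181, edgeR) and Evi2a without library 12 (−0.07, adjusted p = 0.0462, edgeR). The core genes are part of the offset, so their values against it are a description only, from 0.09 for Mbp to −0.09 for Cnp.

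**Figure D4:**
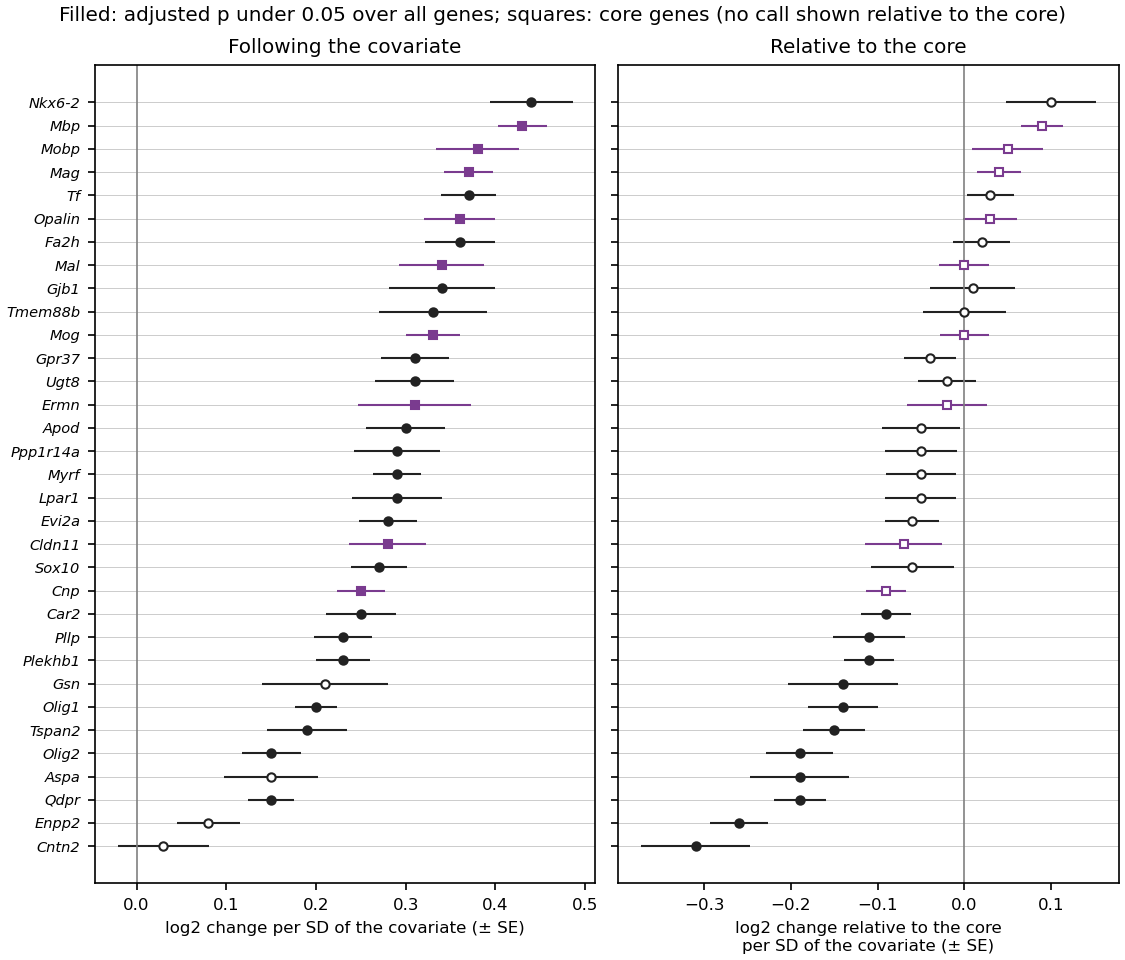
Left, log2 change of each member per SD of the covariate built from 21 other oligodendrocyte genes, with SE as bars over 27 libraries. Right, the same relative to the 9 core genes; filled symbols passed an adjusted p of 0.05 in edgeR, and squares are core genes, which are drawn open on the right because they are part of the core level. The 11 filled points on the right, from Cntn2 at −0.31 to Car2 at −0.09, are the members with a lower slope than the core.

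Other cell types were set beside these results, since their markers could move with the core. After adjustment in edgeR, 0 of 7 astrocyte, 6 microglial, 7 neuronal, 6 endothelial and mural, and 7 meningeal fibroblast genes rose or fell with the covariate, with median log2 changes of 0.07, 0.07, −0.05, 0.03 and −0.42 per SD. At an unadjusted p under 0.05 edgeR gave 3, 0, 2, 1 and 0 genes of these lists, and DESeq2 gave 3, 0, 2, 1 and 2, with 0 after adjustment in each list. The meningeal list includes Ptgds, which oligodendrocytes express as well. Spearman's rho of the core level with the summary level of these lists was 0.416 for astrocytes, 0.481 for microglia, −0.205 for neurons, −0.001 for endothelium and mural cells, and −0.217 for meningeal fibroblasts. Within the libraries up to 31 these values were 0.756, 0.647, −0.359, 0.253 and −0.103, and within those from 32 they were −0.182, 0.045, −0.145, −0.5 and −0.245, in the same order. Of 12 genes of precursors and newly formed oligodendrocytes that were tested, Bcas1, a gene of early myelinating cells, rose by 0.32 (adjusted p = 1.41e-09, edgeR), and the median was 0.07, with 10 estimates above 0 and 2 below. Spearman's rho of the core level with the summary level of this list was 0.625, with 0.776 up to number 31 and 0.173 from number 32. Of the 20 tested genes in the covariate, 16 rose, which follows from how it was built. Gsn had a rho of −0.57 with the neuronal level and −0.629 with total counts, and Aspa one of 0.465 with the endothelial and mural level; their part in these 2 genes was not tested.

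Few members differed between the library number blocks in the edgeR test. Of all genes, 9.05% were higher and 9.3% lower in the libraries from number 32, and of the 33 members 1 was higher and 1 was lower. The mean of Sox10 was 373 ± 79.4 (SD, n = 16) in the first block and 471 ± 45.6 (SD, n = 11) in the second, in normalized counts, a log2 difference of 0.34 ± 0.093 (SE, adjusted p = 0.0109, edgeR). The mean of Gsn was 1050 ± 429 in the first block and 753 ± 50.4 in the second, a log2 difference of −0.48 ± 0.151 (SE, adjusted p = 0.0257, edgeR). The SD of Gsn was far wider in the first block, which holds library 3 at 2400. Without library 3 the number of members that differed was 5, beside 19.2% of all genes, adding Olig1 (0.22), Nkx6-2 (0.40) and Pllp (0.24), all higher from number 32. The covariate averaged −0.31 in the first block and 0.46 in the second, and with it as a term 15 members differed, 1 higher and 14 lower from number 32, beside 9.86% of all genes higher and 11.4% lower. Mal differed by −0.44 in that model (adjusted p = 1.79e-05, edgeR). Of the 20 tested covariate genes, 3 were themselves higher from number 32, Hapln2 by 0.60, Abca2 by 0.24 and Lgi3 by 0.21 on the log2 scale, and 1 was lower, Cd9 by −0.78. The slope on the covariate differed between blocks for 0 members in edgeR and 0 in DESeq2, with 1 member in each at an unadjusted p under 0.05 and 483 and 501 of all 11292 genes.

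Beyond the listed genes, those with the highest rho with the core level among 9757 candidates (mean normalized count of 50 or more) included Serinc5, a scramblase gene (0.898), Klk6, a protease of oligodendrocytes (0.868), Rasgrp3, a RAS exchange factor (0.853), Gna12, a G protein subunit (0.853) and Cplx3, a complexin of deep cortical neurons (0.845). Carhsp1, Gab1, Abca8a and Ano4 came next, at 0.838, 0.816, 0.809 and 0.806. The lowest were Cobl (−0.709), an actin nucleator of neurons, Epha4 (−0.687), a receptor for ephrins, Tut1 (−0.668), Rnd1 (−0.659) and Rftn1 (−0.651). Over the same libraries the rho of Serinc5 exceeded that of most members outside the core, but its SD of log2 values was 0.16, below that of every member. Some of these values differed between the library number blocks. Up to number 31 and from number 32, rho was 0.956 and 0.218 for Abca8a, 0.847 and 0.445 for Ano4, and −0.7 and −0.136 for Rftn1. For Serinc5, Cplx3 and Epha4 it was stronger from number 32.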

How the data were processed

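RNA of mPFC from 27 rats was sequenced, 1 library each, all in 1 group. The submitters' processing notes name Trimmomatic, STAR and HTSeq; versions, genome build, annotation and strand setting are not given in the sources used here. The labels name a TruSeq kit, whereas the study's methods name a NEBNext kit. The deposited table holds raw counts per NCBI gene ID, as the authors' read counting gave them. Symbols came from RefSeq (GRCr8) and matched 27825 rows with 99.49% of counts. Overlapping genes can lose or share reads in such counting.

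Levels are counts divided by DESeq2 1.42.0 size factors. Tests used edgeR 4.0.16 (TMM, filterByExpr, glmQLFit, glmQLFTest) in R 4.3.3 over 11292 genes, with Benjamini-Hochberg adjustment and a threshold of 0.05; logs used a pseudocount of 1. Covariate genes needed a mean count of 10. The scripts were tested on artificial counts with known changes. The rule for named genes took all 36 members, the listed markers, and the 10 genes of highest and 5 of lowest rho with the core; 1 or more of these are not reported here. Members, lists and blocks were chosen with earlier results of these data known. P-values measure the spread between single libraries of separate rats. Alternatives were other scaling, DESeq2's test, no filter, each block, and libraries left out.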

Additional observations from a re-analysis of the deposited data

How the results depend on the processing

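The count of members rising with the covariate stayed between 25 and 30 under the other scalings, tests and filters, the block term, the first block alone, and without libraries 3 and 18, which lie farthest from the covariate's median. In the libraries from number 32 alone it was 0 in edgeR (11 libraries with a narrower range of the covariate). DESeq2 in those libraries, added after seeing the data, called 12. Leaving out 1 library at a time, a check added after seeing the data, gave 27 (without library 3) to 29. Members with a lower slope than the core numbered 9 (without library 18) to 12 (without library 3). Members differing between blocks numbered 2 to 5, the latter without library 3, and 15 with the covariate as a term. That term reversed Mbp (−0.16), Cnp (−0.19), Opalin (−0.23), Tf (−0.18) and Evi2a (−0.18), which had not passed without it; the cause was not tested. The median pairwise rho of 0.701 was 0.5 in the libraries from number 32 and 0.668 to 0.724 with 1 library left out. The median SD of log2 values, 0.368, was 0.431 up to number 31 and 0.25 from number 32, and 0.318 (without library 3) to 0.375 with 1 library left out. The slope difference between blocks stayed at 0 members, beside 0 of all genes. No paired analysis was possible because all rats form 1 group.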
